A study of Homo sapiens with 6 samples.

Results

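The HOX cluster genes encode the homeodomain transcription factors HOXA to HOXD, and their members were taken as every gene whose name is HOX, a cluster letter and a number. This rule used no measured value and found 40 entries for 39 genes among 57820 entries, since HOXC4 is listed in duplicate. RNA-seq libraries of AID-DIvA cells, all untreated, were compared between 3 WT and 3 ARID1A-KO samples. AID-DIvA is a human osteosarcoma line derived from U2OS, in which the restriction enzyme AsiSI is fused to a degron so that DNA breaks can be induced. Both genotypes carry this system, and no breaks were induced in either. ARID1A, a DNA-binding subunit of the BAF chromatin remodeling complex, was knocked out with CRISPR guide RNAs. Whether the ARID1A-KO samples come from 1 clone or several is not given in the sources used here. The replicates carry the numbers 3 to 5, and the study describes its replicates of such data as independent experiments. The p-values weigh the difference between genotypes against the spread between these samples. If the ARID1A-KO samples come from 1 clone, variation between clones is not part of that spread.

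HOX genes lie in clusters in which the order along the chromosome follows the order of their use along the body axis, from head to tail. Low-numbered genes specify anterior positions and high-numbered genes posterior ones, and genes of the same number in different clusters are paralogs. In adult cells and cell lines, the set of active HOX genes often reflects the site of origin of the tissue, and Polycomb and Trithorax proteins are known to keep the genes off or on.

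ARID1A itself fell from 82.4 ± 2.02 TPM (SD, n = 3) in WT to 12.5 ± 0.645 TPM in ARID1A-KO cells. TPM is a level corrected for gene length and scaled to the total of autosomal genes. Reverse-strand counts ranged from 54512105 to 84088708 per sample. Of the 19599 genes that passed a filter on low counts, 17.8% were called higher in ARID1A-KO cells and 18.4% lower, 36.2% in all, at an adjusted p of 0.05. The test was edgeR's quasi-likelihood F-test, with p-values adjusted by Benjamini and Hochberg's method. The median log2 fold change of all tested genes was 0.0066, and 50.9% of them were positive. Of 11 mesenchymal and osteoblast markers, 8 were tested, 1 rose and 4 fell, with a median log2 fold change of -0.46. VIM, the intermediate filament of mesenchymal cells, rose from 2083 to 3780 TPM. It carried the summed level of the list, which was 3101 to 3412 TPM in WT and 4280 to 4727 TPM in ARID1A-KO samples. The bone matrix and mineralization genes ALPL, SPP1, SPARC and COL1A1 fell, with log2 fold changes of -2.45, -1.45, -0.89 and -0.47, and RUNX2 was at 8.03 and 7.95 TPM. The osteoblast genes SP7, BGLAP and IBSP were under the filter. Epithelial markers summed to 865 to 985 TPM in WT and 609 to 669 TPM in ARID1A-KO samples, with EPCAM higher and KRT8, KRT18 and CDH1 lower of 6 tested. Blood markers summed to 6.01 to 9.67 and 5.37 to 6.92 TPM, with HBB at 0. Of 4 tested, ITGAM rose from 0.390 to 3.07 TPM, while PTPRC and CD34 fell, with log2 fold changes of -2.10 and -1.49. Neural markers summed to 6.75 to 9.48 and 15.1 to 20.3 TPM, with RBFOX3 and MAP2 higher of 3 tested. The part of these markers in the HOX results was not tested. In bulk samples, fewer cells of a type and less RNA per cell cannot be told apart.

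Loss of ARID1A went with higher levels of 11 of the 33 HOX genes that could be tested, 33.3% against 17.8% of all tested genes, and with lower levels of none. The 11 genes were HOXA5, HOXA9, HOXA11 and HOXA13, HOXB2, HOXB3, HOXB5 and HOXB6, HOXC9 and HOXC11, and HOXD9. Their changes ranged from 0.26 for HOXA9 to 0.97 for HOXA13 in log2 fold change. At an unadjusted p of 0.05, edgeR called 15 HOX genes higher and 0 lower, and DESeq2 called 12 higher and 0 lower unadjusted and 11 higher and 0 lower after adjustment. The median log2 fold change of the 33 genes was 0.26, with 27 positive and 6 negative. Read counts scaled to library size (CPM) of 16 of the 33 genes did not overlap between genotypes, all of them higher in ARID1A-KO samples, against 24.8% of all tested genes. ARID1A-KO replicate 5 held the highest CPM for 19 of the 33 genes. Without that sample, 22 of the 33 log2 fold changes were positive and 8 genes were called higher.

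**Figure D1:**
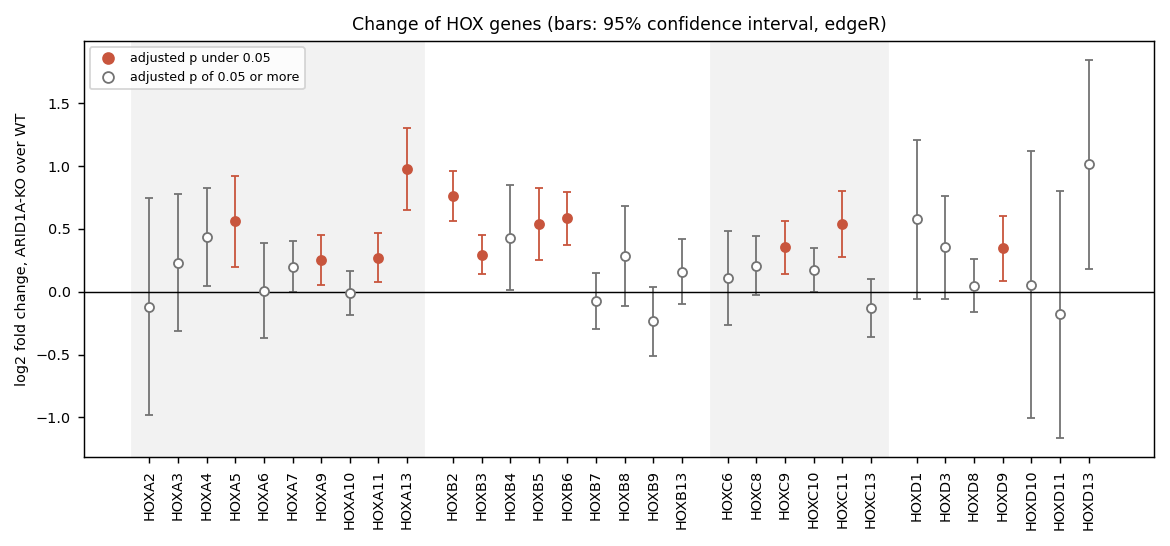
Log2 fold change (ARID1A-KO over WT) of 32 tested HOX genes by cluster, with 95% confidence intervals from edgeR and called genes filled. The 11 genes called higher lie between 0.26 and 0.97, and the 6 negative values, down to -0.24 for HOXB9, belong to genes that were not called.

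Posterior genes, numbered 9 to 13, gave 54.5% of all HOX TPM in WT cells. HOXB9, a posterior gene, had the highest level at 90.3 ± 13.5 TPM (SD, n = 3), above 87.7% of tested genes. HOXB7 followed at 68.0 TPM, then HOXA11 at 36.8 TPM and HOXA10 at 35.6 TPM, which overlapped each other. HOXA9 at 27.4, HOXC10 at 25.8 and HOXC13 at 25.7 TPM came next, with ranges that overlapped from one to the next. A broad group from HOXA7 at 20.2 TPM to HOXB3 at 14.1 TPM showed no gap between neighbors, and HOXD9 at 9.13 TPM stood apart from the genes on both sides of it. From HOXA6 at 6.63 to HOXB5 at 4.48 TPM neighbors overlapped, and HOXA13 at 3.42 and HOXB4 at 1.68 TPM were each separate. In WT cells 28 entries reached 1 TPM, 17 reached 10 TPM and 2 reached 50 TPM, and in ARID1A-KO cells the numbers were 28, 18 and 2.

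In ARID1A-KO cells, HOXB9 at 77.5 TPM and HOXB7 at 65.5 TPM remained at the top of the order, with ranges that now overlapped. HOXA11 at 44.9 TPM was now separate from HOXA10 at 35.8 TPM. HOXB2 stood at rank 7 with 29.0 TPM.

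**Figure D2:**
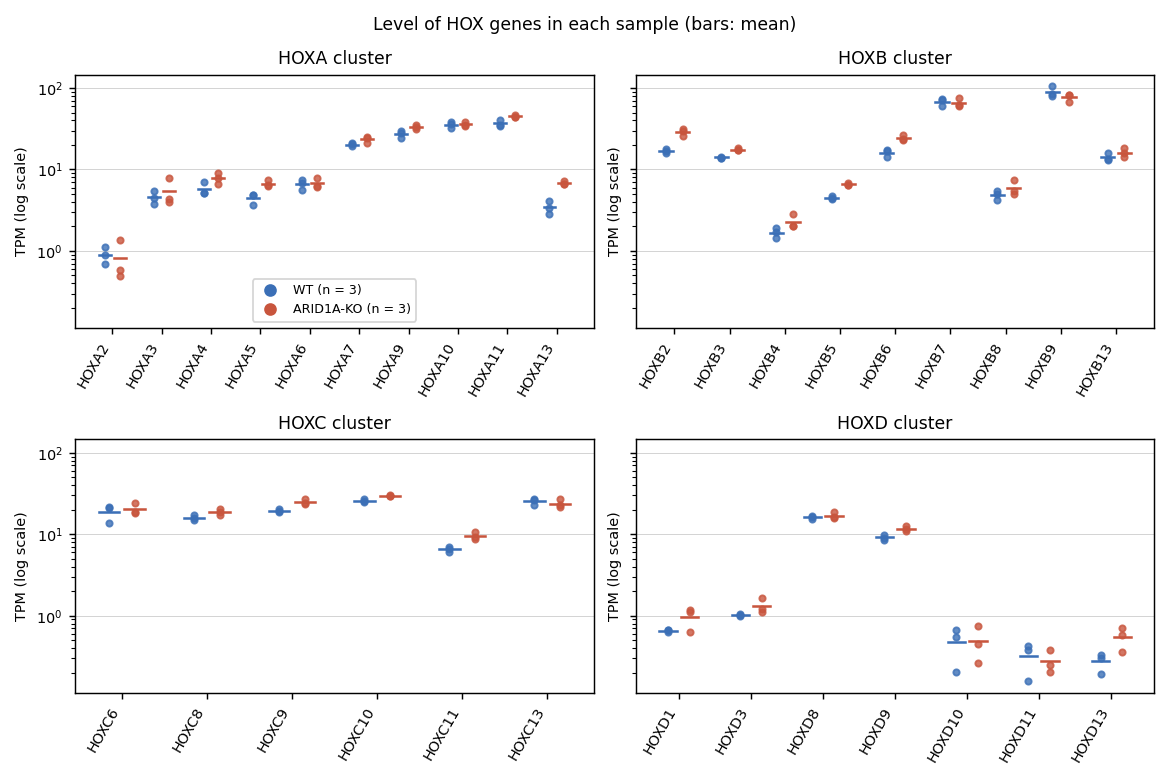
Level in TPM (log axis) of 32 tested HOX genes in the 3 WT (blue) and 3 ARID1A-KO (red) samples, by cluster, with bars at the means. HOXB9 and HOXB7 lie at the top in both genotypes, and HOXD8 and HOXD9 lie above all other HOXD genes.

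The HOX genes numbered 1 to 3, the anterior ones, summed to 62.9 ± 1.52 TPM in WT and 82.5 ± 5.24 TPM in ARID1A-KO cells (SD, n = 3). This took their share of all HOX TPM from 11.6% to 13.6%. A large part of the rise came from 1 gene, HOXB2, which went from 16.8 to 29.0 TPM. Genes 4 to 8 summed to 184 ± 12.9 and 206 ± 19.4 TPM, and genes 9 to 13 to 296 ± 18.0 and 316 ± 4.84 TPM. Of the tested genes, 2 of 7 anterior, 3 of 12 central and 6 of 14 posterior ones rose, with median log2 fold changes of 0.29, 0.24 and 0.22. Among all tested genes 17.8% rose, and the position groups were not compared by a test.

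The HOXA cluster spans 107 kb of chromosome 7 (GRCh37) on the minus strand, and all 11 of its genes were tested. Of these, 4 rose, 36.4% against 17.8% of all tested genes, and none fell. The summed level of the cluster was 173, 177 and 162 TPM in WT samples 3, 4 and 5 and 191, 197 and 209 TPM in ARID1A-KO samples 3, 4 and 5. These sums did not overlap and differed by 28.5 TPM, a ratio of 1.17.

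HOXA13 (ENSG00000106031.6, chr7:27233122-27239725), which patterns the hand, foot and urogenital tract, changed most among the called genes. Its level was 3.32, 4.09 and 2.86 TPM in WT and 6.58, 7.16 and 6.72 TPM in ARID1A-KO samples. Every ARID1A-KO sample lay above every WT sample, and the gene rose 1.96-fold, a log2 fold change of 0.97 (95% CI 0.65 to 1.30, SE 0.15, adjusted p = 0.000809). HOXA5, known in lung development, stood at 4.84, 4.92 and 3.71 TPM in WT and 6.19, 6.39 and 7.52 TPM in ARID1A-KO samples. The groups did not overlap, with WT replicate 5 the lowest, and the gene rose by 0.56 (SE 0.16, adjusted p = 0.0225) on the log2 scale.

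HOXA11, a gene of the forearm and uterus, was at 35.0, 40.7 and 34.6 TPM in WT and 44.5, 46.1 and 44.3 TPM in ARID1A-KO samples. HOXA9, a gene of posterior identity and of blood stem cells, was at 28.4, 29.6 and 24.3 TPM in WT and 31.5, 33.0 and 34.9 TPM in ARID1A-KO samples. Both rose by small steps without overlap between the groups, HOXA11 by 0.27 (SE 0.09, adjusted p = 0.0357) and HOXA9 by 0.26 (SE 0.09, adjusted p = 0.0473) on the log2 scale. HOXA10, which lies between them and acts in the uterus and hindlimb, was at 36.1, 38.6 and 32.2 TPM in WT and 35.1, 34.5 and 37.8 TPM in ARID1A-KO samples. Its groups overlapped, and the 95% interval of its log2 fold change was -0.19 to 0.17.

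The RefSeq promoter table held 20 of the 39 HOX genes and 3 of the 11 called genes. The promoters of HOXA13, HOXA11 and HOXA9 are shown beside that of HOXA10, their neighbor that was not called, as the 250 bases before the RefSeq start. HOXA13 has the largest change among the called genes, and the other 3 were chosen after their values were seen. The table is of GRCh38.p14, and each stretch was placed on GRCh37 by an exact match, on the minus strand. Capitals mark TATAAA (the form read by TATA-binding protein), the NF-Y form CCAAT and, for the SP family, GGGCGG, each searched on both strands.
HOXA13, chr7:27239711-27239960: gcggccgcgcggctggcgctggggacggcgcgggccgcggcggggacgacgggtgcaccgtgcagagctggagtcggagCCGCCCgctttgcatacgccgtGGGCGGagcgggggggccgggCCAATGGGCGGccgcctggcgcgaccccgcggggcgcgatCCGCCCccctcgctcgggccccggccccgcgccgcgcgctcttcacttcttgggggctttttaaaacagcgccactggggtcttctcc
HOXA11, chr7:27224852-27225101: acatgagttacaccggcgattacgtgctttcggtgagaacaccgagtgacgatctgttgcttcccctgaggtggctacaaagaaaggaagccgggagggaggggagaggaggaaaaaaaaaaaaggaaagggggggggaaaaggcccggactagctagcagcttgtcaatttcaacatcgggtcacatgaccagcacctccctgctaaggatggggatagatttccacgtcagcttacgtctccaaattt
HOXA10, chr7:27213940-27214189: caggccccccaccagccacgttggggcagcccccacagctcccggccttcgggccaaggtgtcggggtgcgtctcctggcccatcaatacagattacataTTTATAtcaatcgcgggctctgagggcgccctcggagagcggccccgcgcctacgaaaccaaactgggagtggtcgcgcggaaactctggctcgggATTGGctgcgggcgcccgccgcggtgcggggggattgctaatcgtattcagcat
HOXA9, chr7:27205157-27205406: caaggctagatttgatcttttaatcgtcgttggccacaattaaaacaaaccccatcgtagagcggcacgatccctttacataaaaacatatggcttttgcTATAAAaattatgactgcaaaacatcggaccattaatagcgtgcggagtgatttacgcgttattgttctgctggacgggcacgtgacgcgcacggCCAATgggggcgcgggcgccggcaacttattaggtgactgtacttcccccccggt
The starts of HOXA13 and HOXA11 lie 15 and 9 bases from the edge of their gene entries, while those of HOXA10 and HOXA9 lie 5941 and 4961 bases inside. The HOXA13 stretch is 78% G and C with 40 CpG and holds GGGCGG 4 times over both strands, once directly after its CCAAT. Among 35116 promoters GGGCGG was found in 42.6% and CCAAT in 32.0%. The HOXA9 and HOXA10 stretches, at 48.8% and 65.2% G and C, hold TATAAA 150 to 145 bases before the start, on opposite strands. TATAAA was found in 10.7% of promoters, and HOXA11, at 51.6% G and C, held none of the 3 motifs. The Hox and Pbx form TGATTNAT occurred in 2.48% of promoters and the caudal form TTTATGG in 2.30%, and in neither case in these 4. These matches are letters in a window, with no binding measured.

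Among the other HOXA genes the groups overlapped or differed by less than the test could call. HOXA4 had the largest change of these, at 7.03, 5.09 and 5.12 TPM in WT and 7.88, 6.66 and 8.98 TPM in ARID1A-KO samples. Its log2 fold change was 0.44 (95% CI 0.05 to 0.83, adjusted p = 0.0765). HOXA7 was at 20.9, 19.5 and 20.3 TPM in WT and 21.1, 24.6 and 24.9 TPM in ARID1A-KO samples, without overlap and with an adjusted p of 0.113. HOXA3 was at 5.39, 3.74 and 4.46 TPM in WT and 3.94, 4.40 and 7.81 TPM in ARID1A-KO samples, HOXA6 at 7.42, 5.57 and 6.90 and 6.28, 6.06 and 7.84 TPM. HOXA2 ranged from 0.496 to 1.36 TPM over all samples. Overlapping entries limit these values, since HOXA3 shares its strand and part of its span with HOXA4, HOXA5 and HOXA6.

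The HOXB cluster spans 201 kb of chromosome 17 (chr17:46605888-46806540), also on the minus strand. Of its 9 tested genes 4 rose, 44.4% against 17.8% of all tested genes, and none fell. Its summed level was 223.5, 237 and 231 TPM in WT and 236, 245 and 253 TPM in ARID1A-KO samples. The sums overlapped and differed by 14.3 TPM, and at 1.06 the ratio was the smallest of the 4 clusters. Its 2 most abundant genes, HOXB9 and HOXB7, did not rise.

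HOXB2 (ENSG00000173917.9, chr17:46618256-46623441), which patterns the hindbrain downstream of KROX20, was at 15.9, 17.8 and 16.8 TPM in WT and 26.1, 29.5 and 31.4 TPM in ARID1A-KO samples. The lowest ARID1A-KO sample lay well above the highest WT sample, and the gene rose 1.70-fold, a log2 fold change of 0.77 (95% CI 0.57 to 0.97, SE 0.09, adjusted p = 0.00019). HOXB6 was at 17.5, 14.1 and 16.9 TPM in WT and 23.3, 23.9 and 26.2 TPM in ARID1A-KO samples. It rose by 0.58 (SE 0.09, adjusted p = 0.00123) on the log2 scale with no overlap. HOXB5, which acts in gut and neural crest development, was at 4.67, 4.32 and 4.45 TPM in WT and 6.44, 6.49 and 6.82 TPM in ARID1A-KO samples. Its values were tight within each genotype, and it rose by 0.54 (SE 0.13, adjusted p = 0.00975) on the log2 scale. HOXB3, another hindbrain gene, was at 14.02, 14.4 and 13.96 TPM in WT and 17.2, 18.2 and 17.2 TPM in ARID1A-KO samples. It rose by 0.29 (SE 0.07, adjusted p = 0.00877) on the log2 scale with no overlap. HOXB4, HOXB5 and HOXB6 each overlap HOXB3 on the same strand, so a read in a stretch shared with HOXB3 cannot be assigned with certainty.

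The posterior genes of the cluster did not pass the test. HOXB9 (ENSG00000170689.8, chr17:46698518-46703839) was at 80.5, 106 and 84.6 TPM in WT and 82.4, 81.8 and 68.2 TPM in ARID1A-KO samples. The groups overlapped, with WT replicate 4 the highest, and the log2 fold change was -0.24 (95% CI -0.51 to 0.04, SE 0.12, adjusted p = 0.165). Without the filter on low counts it was called lower, with an adjusted p of 0.0154. HOXB7 was at 70.2, 60.7 and 73.0 TPM in WT and 59.9, 61.9 and 74.7 TPM in ARID1A-KO samples, with overlap and a 95% interval of -0.29 to 0.15 for its log2 fold change. HOXB13, a gene of the prostate and tail end, was at 13.6, 13.2 and 16.0 TPM in WT and 14.2, 15.9 and 18.2 TPM in ARID1A-KO samples, which overlapped. HOXB8 was at 5.40, 4.94 and 4.16 TPM in WT and 4.98, 5.40 and 7.45 TPM in ARID1A-KO samples, and HOXB4 at 1.71, 1.89 and 1.43 and 1.995, 2.03 and 2.84 TPM. Only HOXB4 of these had no overlap, with an adjusted p of 0.101. HOXB1, the most anterior gene, had 1 read in 1 ARID1A-KO sample and 0 in the other 5.

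The HOXC cluster spans 117 kb of chromosome 12 (chr12:54332535-54449814) on the plus strand. Of its 6 tested genes 2 rose, 33.3% against 17.8% of all tested genes. The summed level was 117, 105 and 116 TPM in WT and 121, 125 and 137 TPM in ARID1A-KO samples, without overlap, a ratio of 1.13. HOXC11 (ENSG00000123388.4, chr12:54366910-54371427), a posterior gene, was at 6.10, 6.58 and 6.96 TPM in WT and 9.36, 8.85 and 10.7 TPM in ARID1A-KO samples. It rose by 0.54 (SE 0.12, 95% CI 0.28 to 0.81, adjusted p = 0.00626) on the log2 scale. HOXC9, which acts in thoracic motor neurons, was at 20.5, 19.1 and 18.9 TPM in WT and 23.6, 24.5 and 27.5 TPM in ARID1A-KO samples, and rose by 0.35 (SE 0.09, adjusted p = 0.0168) on the log2 scale. Neither gene overlapped between genotypes. The HOXC9 entry lies inside the HOXC6 entry on the same strand, so a read in a stretch shared with HOXC6 cannot be assigned with certainty.

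HOXC10, next to HOXC11, was at 25.4, 25.2 and 26.8 TPM in WT and 29.3, 29.2 and 30.004 TPM in ARID1A-KO samples. Its groups did not overlap either, but the log2 fold change of 0.18 had an adjusted p of 0.105. HOXC13, known in hair and nail formation, was at 27.4, 23.2 and 26.5 TPM in WT and 21.3, 22.9 and 27.1 TPM in ARID1A-KO samples, with overlap and a log2 fold change of -0.13. HOXC8 was at 15.05, 17.1 and 16.0 TPM in WT and 18.5, 20.7 and 17.1 TPM in ARID1A-KO samples, with the nearest samples of the genotypes level. HOXC6 was at 21.8, 13.9 and 20.9 TPM in WT and 18.4, 18.7 and 24.4 TPM in ARID1A-KO samples, and WT replicate 4 was the lowest. HOXC4, HOXC5 and HOXC12 were not tested, with at most 14 reads in any sample, and the duplicate HOXC4 entry had 0 reads in all 6.

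The HOXD cluster spans 98.1 kb of chromosome 2 (chr2:176957619-177055688) on the plus strand. Of its 7 tested genes 1 rose, and this 14.3% is below the 17.8% of all tested genes. The summed level was 28.9, 28.9 and 27.1 TPM in WT and 30.5, 32.2 and 35.6 TPM in ARID1A-KO samples, without overlap, a ratio of 1.16, and HOXD8 and HOXD9 made up most of it. HOXD9 (ENSG00000128709.10, chr2:176987088-176989853), a limb and posterior axis gene, was at 9.10, 9.70 and 8.60 TPM in WT and 10.9, 12.6 and 11.7 TPM in ARID1A-KO samples. It rose by 0.34 (SE 0.11, 95% CI 0.09 to 0.60, adjusted p = 0.0404) on the log2 scale with no overlap.

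HOXD8, its neighbor, was at 16.3, 16.9 and 15.4 TPM in WT and 16.0, 16.3 and 18.7 TPM in ARID1A-KO samples. The groups overlapped, and the 95% interval of its log2 fold change was -0.16 to 0.26. HOXD13, which patterns the digits, had the largest fitted change of the 33 genes but few reads, with 10, 7 and 10 in WT and 25, 10 and 25 in ARID1A-KO samples. It needed its ARID1A-KO samples to pass the filter on low counts, yet it is among the 27 positive genes and the 16 without overlap. Its CPM did not overlap, and the log2 fold change of 1.01 (SE 0.37, 95% CI 0.18 to 1.85) had an adjusted p of 0.0585. HOXD3 was at 0.979, 1.02 and 1.06 TPM in WT and 1.11, 1.20 and 1.65 TPM in ARID1A-KO samples, without overlap and not called. HOXD1, HOXD10 and HOXD11 stayed between 0.158 and 1.18 TPM with overlap between genotypes, and HOXD4 and HOXD12 had at most 13 reads in any sample and were not tested.

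**Figure D3:**
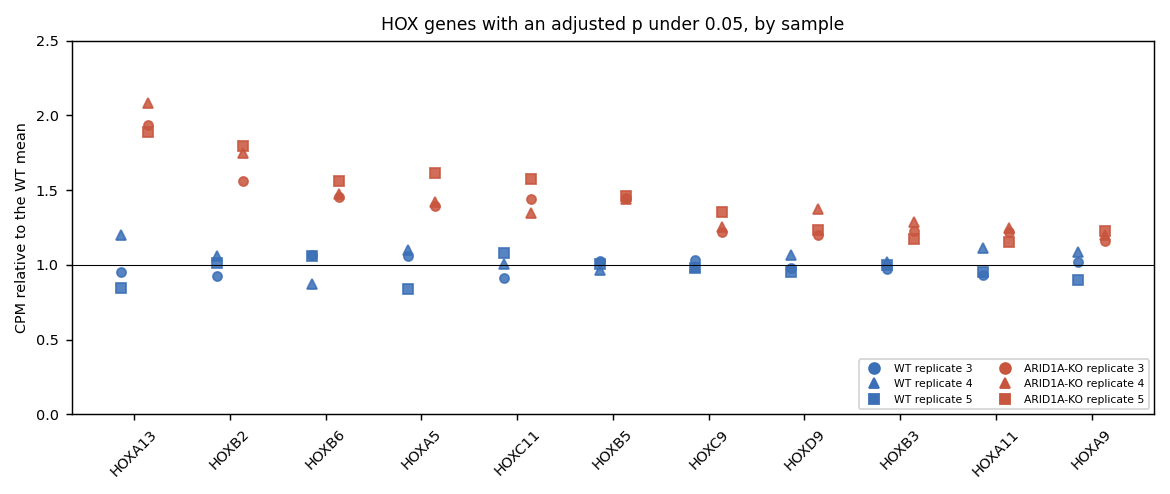
CPM relative to the WT mean for each of the 11 called HOX genes, with 1 point per sample, the shape giving the replicate number and a line at the WT mean. For all 11 genes every ARID1A-KO point lies above every WT point, with mean changes from 1.96-fold for HOXA13 down to a log2 fold change of 0.26 for HOXA9.

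Part of the calls rested on single samples or settings. HOXA13, HOXB2, HOXB5, HOXB6 and HOXC11 were called higher in every one of the alternatives run, with HOXA13 between 0.87 and 1.13 and HOXB2 between 0.68 and 0.83 in log2 fold change. The HOXB3 call was lost without ARID1A-KO replicate 4 (adjusted p = 0.0529). The HOXC9 call was also lost without that sample (0.0567). At a threshold of 0.01, HOXA5, HOXA9, HOXA11, HOXC9 and HOXD9 were not called. HOXA5 was lost without WT replicate 5 (adjusted p = 0.068) and without ARID1A-KO replicates 4 (0.0554) and 5 (0.0541). HOXA11 was lost without WT replicates 3 (adjusted p = 0.121) and 5 (0.105) and without ARID1A-KO replicates 3 (0.0963) and 4 (0.127). HOXA9 was lost without each sample except WT replicate 4, with adjusted p values from 0.0851 to 0.131. HOXD9 was lost without the same 5 samples, with adjusted p values from 0.0521 to 0.168. Without a filter on low counts, HOXA9 (adjusted p = 0.0761) and HOXD9 (0.0837) were lost, and with a mean of at least 10 counts HOXA9 (0.0508). With unstranded counts, HOXA11 (adjusted p = 0.0802) and HOXD9 (0.0577) were lost. With an offset on GC content, HOXA11 was lost (adjusted p = 0.0859), and the log2 fold change of HOXD9 was 0.14 (adjusted p = 0.408). The reverse occurred for HOXA4, called without WT replicate 3 (adjusted p = 0.0387), and for HOXD13, called without ARID1A-KO replicate 4 (adjusted p = 0.0453).

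Paralogs share stretches of the homeobox. The longest exact run shared by HOX genes of different clusters was 62 bases over 569 pairs, against reads of 100 bases. Within clusters, 25 of the 40 entries overlap another on the same strand, and 3 pairs of genes share at least 100 bases in their transcripts.

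The clusters hold 44 other entries, mainly long noncoding RNAs and microRNA hairpins, of which 19 were tested, 4 rose and 1 fell, with a median log2 fold change of 0.24. The called share was 26.3%, against 36.2% of all tested genes. HOXA11-AS, transcribed antisense to HOXA11, was at 14.6, 16.3 and 13.6 TPM in WT and 20.8, 21.9 and 23.1 TPM in ARID1A-KO samples, a log2 fold change of 0.54 (adjusted p = 0.00187). HOTTIP, which starts beside HOXA13 and is known to recruit WDR5 and MLL to the 5′ HOXA genes, had 18, 22 and 14 reads in WT and 34, 24 and 51 reads in ARID1A-KO samples (log2 fold change 0.89, adjusted p = 0.0188). HOTTIP thus rose beside HOXA13, both without overlap. HOXD-AS2 was at 6.34, 6.91 and 5.68 TPM in WT and 9.37, 10.9 and 15.1 TPM in ARID1A-KO samples (log2 fold change 0.89, adjusted p = 0.00488). HOXC-AS2 was at 0.696, 1.09 and 0.908 TPM in WT and 1.10, 2.03 and 1.69 TPM in ARID1A-KO samples (log2 fold change 0.81, adjusted p = 0.0494). HOXC-AS2 was close to the threshold and low in level.

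The only one that fell was HOTAIRM1, beside HOXA2 and known in myeloid differentiation, at 65.0, 58.1 and 61.5 TPM in WT and 43.8, 45.1 and 58.8 TPM in ARID1A-KO samples. ARID1A-KO replicate 5 reached the WT range in TPM, with a log2 fold change of -0.34 (adjusted p = 0.032). HOTAIR, in the HOXC cluster and known to bind Polycomb repressive complex PRC2, was at 4.80, 4.46 and 4.78 TPM in WT and 3.55, 3.76 and 4.09 TPM in ARID1A-KO samples. Its groups did not overlap, but the log2 fold change of -0.32 had an adjusted p of 0.0915. A fixed list of long noncoding RNAs of the clusters, 13 of them tested, held the same 4 that rose and 1 that fell. The libraries keep strand, and reads on the other strand were 5.83% to 6.15% of those counted.

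**Figure D4:**
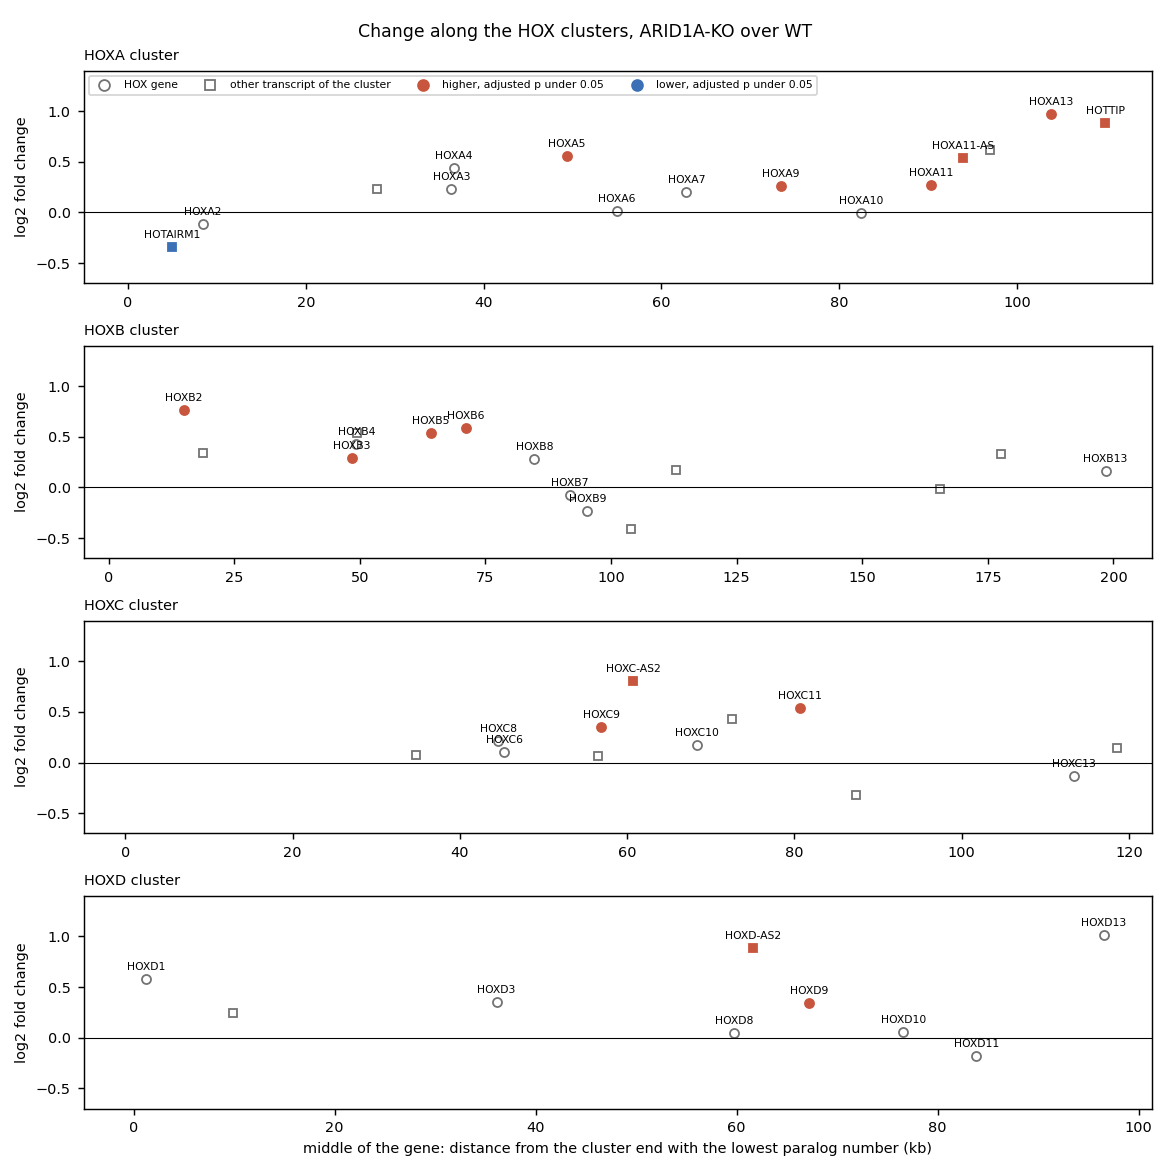
Log2 fold change (ARID1A-KO over WT) of 32 tested HOX genes (circles) and other transcripts (squares) against the distance of the middle of the gene, in kb, from the low-numbered end of each cluster, with called ones filled. HOTTIP at 0.89 lies beside HOXA13 at 0.97, HOTAIRM1 at -0.34 is the only filled point below 0, and genes near 0 lie between called genes, such as HOXA10 between HOXA9 and HOXA11.

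The clusters also carry microRNA genes of the miR-10 and miR-196 families, which target HOX messages. The mature forms are shown from RefSeq with the seed, bases 2 to 8, in capitals.
hsa-miR-196a-5p: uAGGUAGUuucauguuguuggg
hsa-miR-196b-5p: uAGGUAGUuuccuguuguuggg
hsa-miR-10a-5p: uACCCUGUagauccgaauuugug
Both miR-196 forms share a seed. These libraries do not measure mature microRNAs, and only the hairpin entry MIR196A1 passed 8 reads in a sample, with 47, 61 and 40 in WT and 38, 37 and 43 in ARID1A-KO samples. Scaled to library size, it was at 0.704, 0.859 and 0.687 CPM in WT and 0.558, 0.673 and 0.489 CPM in ARID1A-KO samples. Every ARID1A-KO value lay below every WT value, but the gene was not called (adjusted p = 0.168). The hairpin lies inside the HOXB7 entry on the same strand, so these reads cannot be assigned to it with certainty.

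Genes around each cluster had a median log2 fold change nearer 0 than the HOX genes in it. Of all tested genes, 17.8% rose and 18.4% fell. Within 5 Mb on either side of HOXA, 65 genes were tested, 7 rose and 21 fell, with a median log2 fold change of -0.08, against 0.23 for the HOXA genes. Around HOXB, 32 of 166 rose and 25 fell with a median of 0.02, against 0.29 within. Around HOXC, 27 of 217 rose and 33 fell with a median of -0.0021, against 0.19 within. Around HOXD, 5 of 66 rose and 12 fell with a median of -0.0052, against 0.34 within. The differences between cluster and flank were not tested.

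HOX proteins bind DNA with TALE homeodomain partners of the PBX, MEIS and PKNOX families, and 10 of 11 such genes were tested, of which 1 rose and 2 fell, with a median log2 fold change of -0.06. These 3 called of 10 compare with 36.2% of all tested genes. PKNOX1 fell from 11.3 to 9.31 TPM (log2 fold change -0.29, adjusted p = 0.0163). PBX4 rose from 1.12 to 1.86 TPM (log2 fold change 0.73, adjusted p = 0.0158).

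Of 14 Trithorax-type activators, 1 rose and 2 fell, 21.4% called against 36.2% of all tested genes, with a median of -0.04. PSIP1, the chromatin reader that tethers MLL complexes, fell from 121 ± 12.2 to 23.01 ± 1.95 TPM (log2 fold change -2.40, adjusted p = 4.29e-07). Its 25 tested neighbors within 5 Mb had a median of -1.54, so PSIP1 fell together with its surroundings. KMT2A, which encodes MLL1, fell from 28.4 to 21.1 TPM, and the H3K79 methyltransferase gene DOT1L rose from 29.0 to 41.1 TPM.

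Of 33 Polycomb genes, all tested, 8 rose and 5 fell, with a median of 0.01. The called share of 39.4% was near the 36.2% of all tested genes. CBX7 rose from 8.82 to 14.9 TPM, PCGF6 from 34.7 to 51.0 TPM and PHC2 from 59.0 to 85.8 TPM. PHC3 fell from 10.3 to 7.35 TPM and RBBP7 from 84.96 to 61.2 TPM.

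Upstream regulators of axial identity, the retinoic acid pathway and the CDX genes among them, had 13 of 21 tested, 3 higher and 3 lower, 46.2% called against 36.2% of all tested genes, with a median of -0.11. CDX2, a direct activator of central and posterior HOX genes, rose from 2.38 to 6.22 TPM (log2 fold change 1.37, adjusted p = 0.000349). CRABP2, which carries retinoic acid to the nucleus, rose from 70.0 to 224 TPM, and DHRS3, which reduces retinal, from 3.07 to 7.15 TPM. STRA6, the retinol importer, fell from 7.42 ± 3.54 to 0.679 ± 0.407 TPM. ALDH1A2, which makes retinoic acid, fell from 0.760 to 0.311 TPM.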

How the data were processed

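RNA-seq of 3 WT and 3 ARID1A-KO samples was analysed from gene tables. The authors aligned the paired reads to GRCh37 with STAR and deposited, without normalization, whole-number counts per gene from featureCounts on each strand. The deposited TPM values, treated as a score because they are scaled to the sum over autosomal genes, give levels per length. The reverse-strand counts, 54512105 to 84088708 per sample, were used.

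All genes were filtered with filterByExpr, scaled by TMM and tested for genotype in edgeR 4.0.16 (quasi-likelihood test, Benjamini-Hochberg adjustment, threshold 0.05) under R 4.3.3, with no covariate. The common biological coefficient of variation was 0.111. Counts were simulated for this comparison over 19297 genes. In these, edgeR recovered 35 of 73 genes changed 1.5-fold, 47 of 65 changed 2-fold and 57 of 59 changed 4-fold, with 11 false calls. Far fewer genes were changed in the simulation than were called in the data, so this recovery need not hold for the data. No replicate pair within a genotype differed by as little as sampling noise (chi-square per gene 7.20 to 33.9).

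Alternatives were RLE size factors, no filter on low counts, a mean of at least 10 counts, DESeq2 1.42.0, unstranded counts, a replicate block, a threshold of 0.01 and leaving out each sample. An offset on GC content was chosen after seeing the data, and 19020 genes had a value for it, all 33 tested HOX genes among them.

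The members and the gene lists (HOX cofactors, Trithorax-type, Polycomb, upstream regulators, other homeobox genes, cluster noncoding RNAs, and mesenchymal, epithelial, blood and neural markers) were chosen with earlier results of these data known. The values of 1 tested HOX gene and of 1 cofactor gene are not reported here, though both stay in the counts and sums. Every other HOX gene is accounted for, with per-sample levels for called genes and for those at 1 TPM or more. From each other list at most 5 called genes with the largest change are named. Sequences are from RefSeq and were shown for few members.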

Additional observations from a re-analysis of the deposited data

How the results depend on the processing

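The count of HOX genes called higher was 11 by default. It was 11 with RLE size factors and with DESeq2, 10 with a mean of at least 10 counts, 9 with unstranded counts and 9 with the GC offset. Without a filter it was 9, with 1 gene, HOXB9, lower. At a threshold of 0.01 it was 6, and it was 6 to 11 when a sample was left out, lowest without ARID1A-KO replicate 4. At 0.01, 2044 genes were higher and 2370 lower, against 3483 and 3616, and leaving out a sample gave 2538 to 3405 and 2747 to 3698. Called genes among other entries inside the clusters numbered 5, but 3 with DESeq2, 3 with the GC offset, 2 at 0.01 and 2 to 6 without a sample. TALE genes numbered 3, but 5 with the GC offset, 1 at 0.01 and 2 to 4 without a sample. Polycomb genes numbered 13, but 7 at 0.01 and 10 to 12 without a sample. Other homeobox genes numbered 7, but 4 at 0.01 and 4 to 7 without a sample, Trithorax-type genes 3 and 3 to 5, and upstream regulators 6 and 5 to 8.

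The sign changed for HOXA6 (-0.22) and HOXA10 (0.049) with unstranded counts, and for HOXA6 (-0.13) and HOXD8 (-0.011) with the GC offset, in log2 fold change. Leaving out a sample turned HOXA2 (-0.73 to 0.13), HOXA3 (-0.11 to 0.40), HOXA6 (-0.10 to 0.075), HOXA10 (-0.072 to 0.054), HOXC6 (-0.072 to 0.20), HOXD8 (-0.0031 to 0.082), HOXD10 (-0.43 to 0.38) and HOXD11 (-0.53 to 0.068). None of these was called, and the cause was not tested.

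Deviations from the group means correlated at -0.18, 0.27 and 0.18 for equal replicate numbers and -0.42 to 0.30 for others. These values cannot decide whether equal numbers pair the samples, since deviations from a mean of 3 samples depend on each other. With a replicate block, 11 HOX genes were called higher and 0 lower. The 7 HOX entries that were not tested had 14 reads or fewer in every sample. Those of HOXC4, HOXC5, HOXC12 and HOXD4 overlap other entries on the same strand. Whether depth or this overlap limits their counts was not tested.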

Other observations

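Of 20 other genes of the ANTP class, the wider homeobox family to which HOX genes belong, 12 were tested, 6 rose and 1 fell, with a median log2 fold change of 0.52. All tested genes held 17.8% higher and 36.2% called in all, and no test of the list was made. GSX2, which patterns the ventral forebrain, rose from 0.910 to 2.96 TPM (log2 fold change 1.68, adjusted p = 0.00378 in edgeR). DLX3, of skin and placenta, rose from 0.301 to 0.876 TPM (log2 fold change 1.51). GBX1 and PDX1, the pancreatic regulator, rose by 1.02 and 0.93 on the log2 scale. DLX2, a partner of DLX1 in the forebrain, had 0 reads in all 3 WT samples and 16, 9 and 15 reads in the ARID1A-KO samples, at least 12.4-fold higher against a floor of 3 reads over the WT group. DLX2 passed the filter on low counts only through its ARID1A-KO samples, and it is 1 of the 6 that rose. DLX3 had 15, 15 and 7 reads in WT samples and GBX1 had 12, 15 and 5. Both are among the 6 and also needed ARID1A-KO samples to pass. The count of 6 thus rests in part on genes that were tested because of the group where they are high. The change of DLX2 is the largest of the list with or without the bound of 12.4-fold, so the bound cannot move the median of 0.52. DLX1, named after its value was seen as the one gene that fell, decreased by 0.74 on the log2 scale.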
